A study of Sus scrofa with 27 samples.

Results

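The circadian clock genes were followed in pig lungs kept alive outside the body on a perfusion circuit. The members were the rows of the count table named PER1, PER2, PER3, CRY1, CRY2, ARNTL, CLOCK, NR1D1, NR1D2 or DBP, provided that a row reached 10 counts in at least 1 library. Of these 10 names, 8 were found among the 31908 genes of the table, and all 8 passed the count minimum. PER3 and NR1D2 were not among the names written in the table. Their rows (ENSSSCG00000028572 and ENSSSCG00000027017) were identified through NCBI gene tables, and their values are given below outside the count of 8.

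The lungs came from 9 Large-White pigs and were harvested without a beating heart. After a period of cold ischemia they went through ex vivo lung perfusion (EVLP), in which warm Steen solution holding methylprednisolone, cefuroxime and heparin circulates through the ventilated organ. The Gold Standard group (GS, EVLP without dialysis, 5 pigs numbered 9, 17, 44, 55 and 77) had part of its solution replaced at intervals. The Pediatric Dialysis group (PD, 4 pigs numbered 2, 3, 4 and 5) was perfused with a hemodialysis membrane on the circuit. Per the paper, the PD lungs had already served for the 6h time point of an earlier study by the authors, whereas the GS lungs differ from the GS lungs of that study. Whether both groups were collected over the same period was not given in the sources used here. Each pig gave 1 lung biopsy at 0h, taken after cold ischemia and before perfusion, 1 at 6h and 1 at 12h. The pigs' ages and the hour of day of each biopsy were not given in the sources used here. EVLP time and hours of the day advance together in every pig, so they cannot be told apart. The 0h biopsies stand in as the only unperfused samples, and no lung was left in the body or without methylprednisolone in the perfusate.

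The mammalian clock is a feedback loop of transcription that runs in nearly every cell of the body, lung cells included. CLOCK and the product of ARNTL, BMAL1, pair up and switch on genes through E-box sequences. Among these are the PER and CRY genes, whose proteins return to the nucleus and block the pair, and NR1D1 and NR1D2, which encode the REV-ERB receptors that repress ARNTL. DBP, another target of the pair, encodes an activator of clock outputs that binds D-box sequences. PER1 is also a classical gene induced directly by glucocorticoids.

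The promoters of these genes were read from the RefSeq annotation of Sscrofa11.1, the build of the count table, over 250 bases before and 50 bases from each gene's start. They were searched on both strands for the E-box CACGTG, the related E-prime box CACGTT, the ROR element core AGGTCA to which REV-ERB and ROR receptors bind, the D-box TTATGTAA and the cAMP response element TGACGTCA. Among 19551 promoters of the annotation, 7.92% held the E-box, 5.32% the E-prime box, 14.1% the ROR element core, 0.767% the D-box and 2.26% the cAMP response element. The PER1 promoter held an E-box that begins 93 bases before the gene start, the PER3 promoter a D-box and an E-box, the CRY2 promoter an E-prime box and a ROR element core, the NR1D1 promoter an E-prime box, and the DBP and NR1D2 promoters a ROR element core. No match overlapped another. The windows of PER2, CRY1, ARNTL and CLOCK held none of these letters. The promoters of PER1 (chr12:53376674-53376973, minus strand), PER3 (chr6:68487384-68487683, plus strand), CRY2 (chr2:16620331-16620630, minus strand) and DBP (chr6:53992995-53993294, minus strand) are shown because these 4 genes changed during EVLP and carry a match. Capitals mark the matches.
PER1: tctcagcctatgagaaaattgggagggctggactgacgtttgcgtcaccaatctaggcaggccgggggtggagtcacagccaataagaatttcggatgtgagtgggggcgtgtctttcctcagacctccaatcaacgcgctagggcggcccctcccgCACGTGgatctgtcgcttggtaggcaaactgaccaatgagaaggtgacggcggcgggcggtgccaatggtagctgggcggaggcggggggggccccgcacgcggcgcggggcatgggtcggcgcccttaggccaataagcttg
PER3: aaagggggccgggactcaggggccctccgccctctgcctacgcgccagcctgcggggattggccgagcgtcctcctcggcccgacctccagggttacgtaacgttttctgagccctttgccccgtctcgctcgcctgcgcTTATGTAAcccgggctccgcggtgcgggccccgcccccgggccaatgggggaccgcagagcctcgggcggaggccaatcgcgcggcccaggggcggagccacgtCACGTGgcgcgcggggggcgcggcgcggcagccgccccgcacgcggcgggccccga
CRY2: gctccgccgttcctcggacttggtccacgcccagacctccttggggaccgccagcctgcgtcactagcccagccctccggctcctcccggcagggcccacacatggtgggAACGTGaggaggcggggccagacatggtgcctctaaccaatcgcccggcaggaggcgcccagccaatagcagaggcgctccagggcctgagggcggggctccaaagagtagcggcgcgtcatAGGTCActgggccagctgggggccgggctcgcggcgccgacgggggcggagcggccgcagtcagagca
DBP: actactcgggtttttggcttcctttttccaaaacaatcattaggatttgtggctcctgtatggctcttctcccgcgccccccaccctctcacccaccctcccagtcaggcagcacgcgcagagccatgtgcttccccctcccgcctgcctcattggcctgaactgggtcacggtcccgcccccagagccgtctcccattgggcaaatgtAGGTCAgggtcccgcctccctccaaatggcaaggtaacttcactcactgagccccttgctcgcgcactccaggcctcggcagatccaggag

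Library totals were 26335584 to 67522703 counts in GS and 14650700 to 21820935 in PD, without overlap, so depth and group cannot be told apart. GS pigs 44, 55 and 77 were sequenced more deeply than GS pigs 9 and 17 in every library. The libraries also differed in their GC trend. For it, a smooth curve on exon GC and exon length was fitted in each library to the log2 levels, after centring each gene. The trend is the mean fitted value of the tenth of genes with the most GC in their exons minus that of the tenth with the least. The trend was −0.74 to 1.22 in GS and −2.24 to 2.22 in PD, where the extremes were the 12h libraries of pig 4 (−2.24) and pig 2 (2.22). The 12h library of pig 2 also had the fewest counts of all. Markers of lung cells were present throughout. The 5 alveolar type 2 genes found summed to 4958 CPM (counts scaled to a common library size, by which all levels are given) or more in every GS library and to 15323 or more in every PD library, and the 6 endothelial genes to 1201 or more in every library. None of the marker genes found was at 0 throughout a group and time point. RNA came from frozen biopsies or from biopsies in RNAlater by different extraction kits, and the kit of each biopsy was not given in the sources used here. In whole biopsies, fewer cells of a type and less RNA per cell cannot be told apart.

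Levels of the clock genes before perfusion spanned a wide range. Set per kilobase of exon, the GS lungs at 0h held PER1 at 84.0 ± 40.4 CPM per kilobase (SD, n = 5), CRY2 at 17.2 ± 3.18, NR1D1 at 15.8 ± 6.5, DBP at 8.17 ± 3.17, CLOCK at 7.32 ± 2.22, PER2 at 5.99 ± 2.22, ARNTL at 3.36 ± 0.883 and CRY1 at 0.788 ± 0.302. CRY2 and NR1D1 did not differ beyond their spread, nor did DBP, CLOCK and PER2 among themselves. PER1 ranged from 37.1 to 132.0 CPM per kilobase and lay above every other member in all GS lungs at this time, and CRY1 lay below every other member. The last place of CRY1 holds only on this scale, which divides it by 17277 bases of exon merged over annotated transcripts. In CPM without that division, CRY1 averaged 13.6 and ARNTL 11.0 in these lungs. Outside the 8, NR1D2 stood at 36.3 ± 8.9 (28.1 to 47.6, overlapping PER1) and PER3 at 1.14 ± 0.161 CPM per kilobase. In the PD lungs at 0h (n = 4) the order was PER1 at 36.2 ± 19.5 CPM per kilobase, CRY2 at 13.3 ± 1.5, CLOCK at 8.18 ± 1.73, DBP at 6.26 ± 4.08, PER2 at 3.92 ± 1.12, ARNTL at 2.51 ± 0.542, NR1D1 at 2.14 ± 0.994 and CRY1 at 0.963 ± 0.601. NR1D1 thus lay near ARNTL there, within their spread, and not near CRY2 as in GS. NR1D2 stood at 21.1 ± 4.99 and PER3 at 0.325 ± 0.0755 CPM per kilobase in PD.

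**Figure D1:**
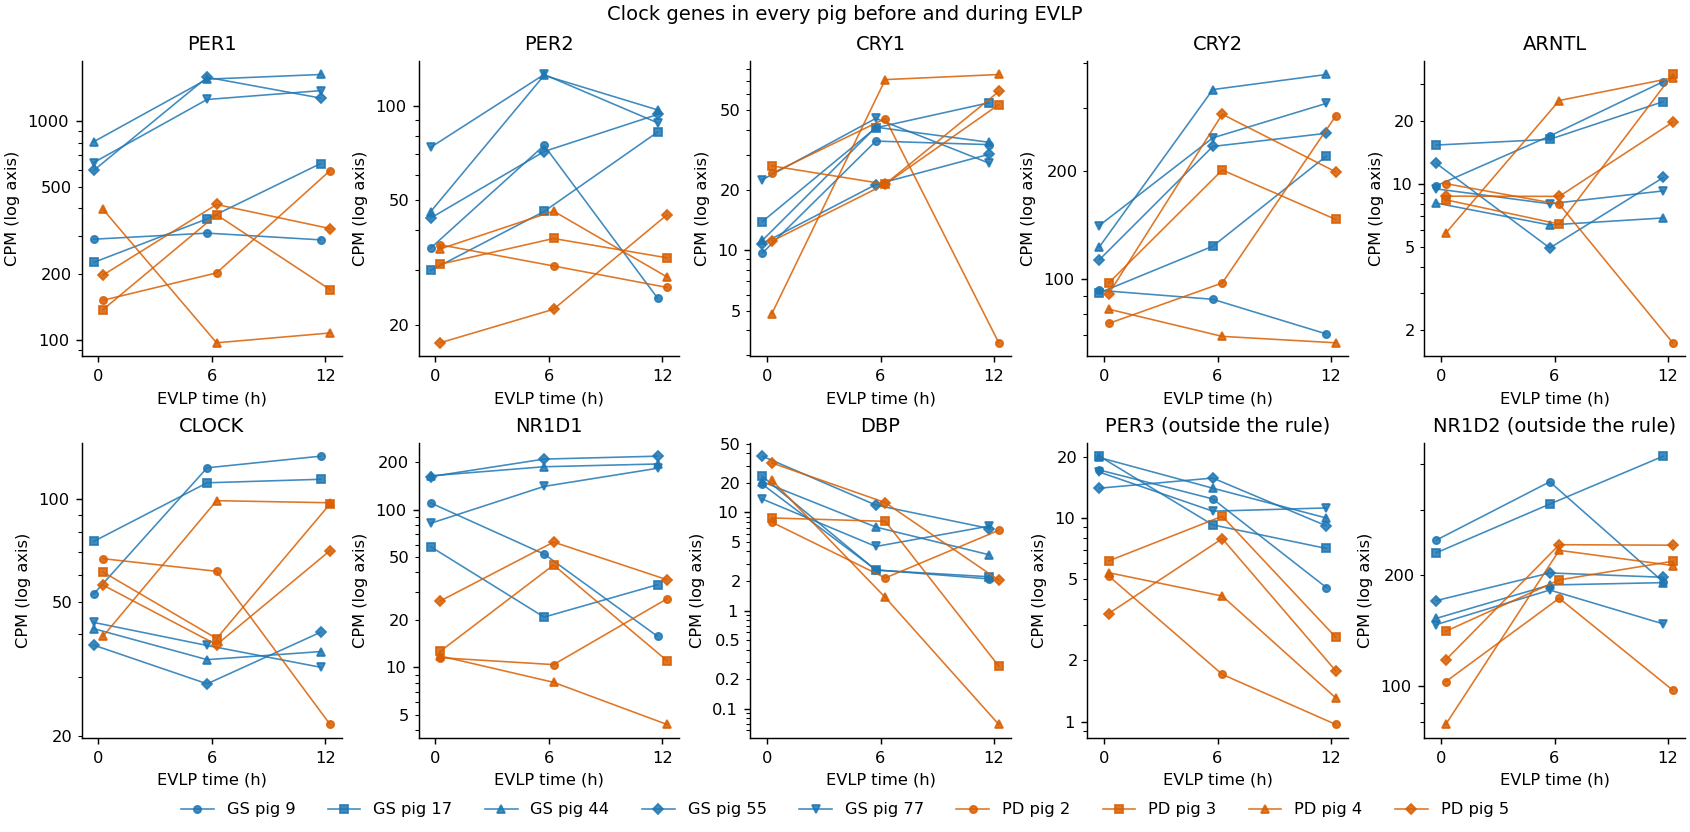
Level of each clock gene in CPM (log axis) against EVLP time in hours, with 1 line per pig, GS in blue and PD in orange. DBP fell in all 5 GS pigs between 0h and 6h, and ARNTL, CRY1 and CLOCK of PD pig 2 at 12h lie apart from the other PD pigs.

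The first question was how each gene changed during standard perfusion. In GS, PER1, PER2, CRY1 and CRY2, which encode repressors of the loop, rose and DBP fell, both at 6h and at 12h, whereas ARNTL, CLOCK and NR1D1 did not pass the test. PER3, a repressor gene of the same family outside the 8, fell at 12h. A gene was said to rise or fall at a Benjamini-Hochberg adjusted p under 0.05 over all genes, from edgeR's quasi-likelihood test with the pig as block. At 6h 5 of the 8 members were called, against 28.5% of the 18594 genes tested, and 2 of the 8 were also changed at least 2-fold, against 11.1%. At 12h 5 of 8 were called and 2 of 8 at least 2-fold, against 38.4% and 15.7%. The median absolute log2 fold change of the members was 0.74 at 6h and 0.81 at 12h, against 0.39 and 0.47 over all genes. Markers of some cell types fell in the same fits. Of 4 T and NK cell genes tested, 3 were called lower at 6h and 4 at 12h (median log2 fold change −0.70 and −0.76), of 4 B cell genes 2 and 3, and of 4 ciliated cell genes 0 and 2. The summed level of the T and NK cell list was 158 to 253 CPM at 0h and 69.0 to 152 CPM at 12h. Their part in the changes of the clock genes was not tested.

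PER1 (ENSSSCG00000017983, chr12:53361868-53376611), a repressor of the loop, stood at 289, 226, 807, 596 and 648 CPM at 0h in GS pigs 9, 17, 44, 55 and 77, in the order used throughout. At 6h the values were 308, 358, 1559, 1590.4 and 1259 CPM, and at 12h 287, 641, 1638, 1278 and 1382 CPM. Pigs 44, 55 and 77 were high at each time and about doubled, pig 17 rose mainly after 6h, and pig 9 hardly moved, so the time points overlap. The fitted log2 fold change was 0.79 (SE 0.20, adjusted p = 0.0106 by edgeR) at 6h and 0.91 (SE 0.20, adjusted p = 0.00366) at 12h. The 6h call was lost without pig 44 (0.76, adjusted p = 0.0543) or pig 55 (0.63, adjusted p = 0.0566).

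PER2 (ENSSSCG00000016338, chr15:137793419-137837236), its paralog, stood at 35.1, 29.8, 45.9, 43.8 and 73.7 CPM at 0h, at 74.8, 46.0, 125, 71.5 and 126 CPM at 6h and at 24.3, 82.5, 97.1, 93.9 and 88.3 CPM at 12h. It was higher at 6h in 5 of 5 pigs, and pig 9 then dropped below its own 0h level. Its log2 fold change was 0.93 (SE 0.27, adjusted p = 0.0202 by edgeR) at 6h and 0.72 (SE 0.27, adjusted p = 0.04996) at 12h, which is just under the threshold. The 6h call was lost without pig 44 (0.82, adjusted p = 0.098). The 12h call was lost without pig 17 (0.50, adjusted p = 0.172), pig 44 (0.64, adjusted p = 0.155), pig 55 (0.61, adjusted p = 0.166) or pig 77 (0.85, adjusted p = 0.0602). Of the alternatives run, these included, 10 lost the 12h call (0.50 to 0.85) and 5 kept it (0.77 to 1.01).

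CRY1 (ENSSSCG00000000164, chr5:13275544-13364594) encodes a cryptochrome, the partner of the PER proteins. Its level was 9.68, 13.9, 11.2, 10.8 and 22.5 CPM at 0h, 35.1, 40.9, 41.2, 21.3 and 45.6 CPM at 6h, and 33.7, 54.6, 34.6, 30.2 and 27.2 CPM at 12h. All 5 pigs were higher at both later times, and the 12h values do not overlap those at 0h. The rise was 2.68-fold at 6h (log2 fold change 1.42, SE 0.22, adjusted p = 0.000864 by edgeR) and 2.64-fold at 12h (1.40, SE 0.22, adjusted p = 0.000528), the largest rise among the 8 members at each time. It remained called without any 1 pig (1.32 to 1.57 at 6h and 1.27 to 1.69 at 12h). With all 27 libraries in one fit it was not called at either time (1.44 at both).

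CRY2 (ENSSSCG00000013270, chr2:16585966-16620405), the second cryptochrome, stood at 93.3, 91.8, 123, 113 and 141 CPM at 0h, at 88.1, 124, 337, 234 and 247 CPM at 6h, and at 70.6, 220.1, 371, 255 and 308 CPM at 12h. As with PER1, pigs 44, 55 and 77 had moved most by 6h and pig 17 had moved by a like amount or more by 12h, while pig 9 was lower at both later times. CRY2 had a log2 fold change of 0.68 (SE 0.23, adjusted p = 0.0401 by edgeR) at 6h and 0.91 (SE 0.23, adjusted p = 0.00836) at 12h. The 6h call was lost without pig 17 (0.74, adjusted p = 0.0572), pig 44 (0.51, adjusted p = 0.171), pig 55 (0.60, adjusted p = 0.143) or pig 77 (0.67, adjusted p = 0.113).

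DBP (ENSSSCG00000003148, chr6:53986959-53993020) was the member that changed most. It fell from 19.4, 23.4, 20.6, 37.5 and 13.7 CPM at 0h to 2.60, 2.58, 7.10, 11.9 and 4.50 CPM at 6h and to 2.10, 2.21, 3.70, 6.86 and 7.27 CPM at 12h. Every pig was lower at both later times, and neither time overlaps 0h. The fall was 4.64-fold at 6h (log2 fold change −2.22, SE 0.33, adjusted p = 0.000735 by edgeR) and 5.76-fold at 12h (−2.53, SE 0.34, adjusted p = 0.000232). Left-out pigs moved it only between −2.40 and −1.95 at 6h and between −2.95 and −2.26 at 12h, always called. Per pig, the 12h level was 9.45% to 53.2% of the 0h level, with pig 77 the least reduced.

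ARNTL (ENSSSCG00000013397, chr2:45895289-46025165), the gene of the activator BMAL1, stood at 9.76, 15.3, 8.07, 12.5 and 9.44 CPM at 0h, at 16.9, 16.3, 6.34, 4.92 and 8.01 CPM at 6h, and at 30.8, 24.7, 6.85, 10.7 and 9.23 CPM at 12h. Pigs 9 and 17 were higher at 6h and 12h than at 0h, and pigs 44, 55 and 77 were lower. ARNTL stood at a log2 fold change of −0.27 (SE 0.27, adjusted p = 0.471 by edgeR) at 6h and 0.29 (SE 0.27, adjusted p = 0.398) at 12h.

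CLOCK (ENSSSCG00000008909, chr8:54788864-54910146), the partner of BMAL1, was higher at both later times in pigs 9 and 17, with 52.6 and 75.2 CPM at 0h, 124 and 112 CPM at 6h, and 134 and 115 CPM at 12h. In pigs 44, 55 and 77 it stood at 41.6, 37.2 and 43.4 CPM at 0h, at 33.7, 28.6 and 37.1 CPM at 6h and at 35.6, 40.6 and 32.0 CPM at 12h, lower than at 0h except in pig 55 at 12h. These 3 pigs did not overlap pigs 9 and 17 at any time. The log2 fold change over all 5 pigs was 0.12 (SE 0.23, adjusted p = 0.722 by edgeR) at 6h and 0.21 (SE 0.23, adjusted p = 0.492) at 12h.

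NR1D1 (ENSSSCG00000036933, chr12:22263657-22271643), the gene of REV-ERB alpha, ran the other way. Pigs 9 and 17 went from 110.2 and 58.2 CPM at 0h to 52.2 and 20.8 CPM at 6h and 15.7 and 33.4 CPM at 12h. Pigs 44, 55 and 77 went from 164, 162 and 81.8 CPM at 0h to 187, 209 and 140.2 CPM at 6h and 194, 218 and 183 CPM at 12h. The log2 fold change over all 5 pigs was −0.37 (SE 0.41, adjusted p = 0.527 by edgeR) at 6h and −0.36 (SE 0.42, adjusted p = 0.518) at 12h. NR1D1 overlaps THRA on the opposite strand at its end, and the strand counted was not stated, so reads of that stretch cannot be told apart.

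Pigs 9 and 17 are also the GS pigs with the lower sequencing depth, whose part in these patterns was not tested. With no replicate block, when pigs are not paired with themselves, CRY1 and DBP were the 2 members called at each time, among 1731 genes called at 6h and 3083 at 12h in all, CRY1 at 1.42 (adjusted p = 0.00563 by edgeR) and 1.37 (adjusted p = 0.00397) and DBP at −2.01 (adjusted p = 0.0135) and −2.40 (adjusted p = 0.00341).

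PER3, another PER paralog (chr6:68488263-68534004), went against PER1 and PER2 in GS. It stood at 17.2, 20.1, 19.8, 14 and 16.8 CPM at 0h, at 12.4, 9.25, 14, 15.7 and 10.8 CPM at 6h and at 4.56, 7.09, 10, 9.15 and 11.2 CPM at 12h, without overlap between 0h and 12h. It fell at 12h (log2 fold change −1.14, SE 0.22, adjusted p = 0.0018 by edgeR), while the 6h value was −0.53 (SE 0.22, adjusted p = 0.0818). NR1D2, the gene of REV-ERB beta (chr13:10756926-10791210), stood at 147 to 249 CPM at 0h, 182 to 358 CPM at 6h and 147.5 to 419.8 CPM at 12h in GS. It was higher at 6h in 5 of 5 pigs, but the log2 fold change of 0.35 (SE 0.16, adjusted p = 0.115 by edgeR) did not pass, nor did the 0.19 (SE 0.16, adjusted p = 0.36) at 12h.

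Between 6h and 12h no member was called in GS, against 0% of all genes. At an unadjusted p under 0.05 edgeR had 882 of the 18594 genes but none of the 8, and DESeq2 called 2 genes, neither of them a member. The member nearest to the threshold was ARNTL, higher at 12h than at 6h in 5 of 5 pigs (log2 fold change 0.56, SE 0.26, unadjusted p = 0.0506 by edgeR, adjusted p = 1.0).

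**Figure D2:**
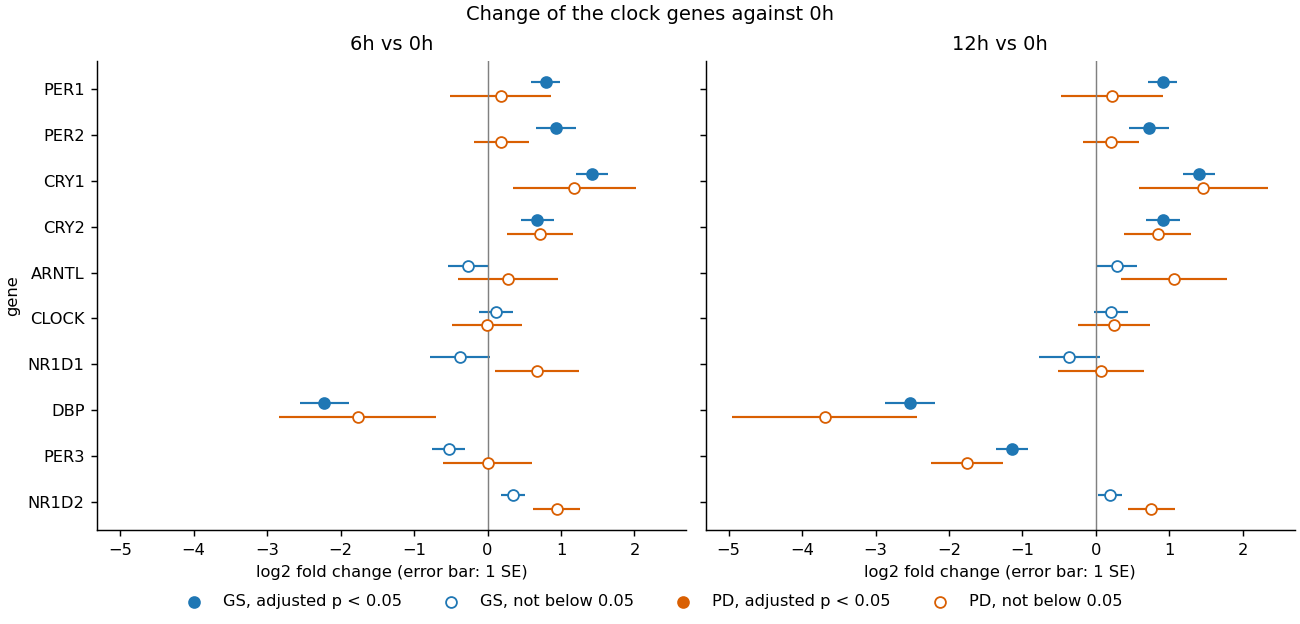
Log2 fold change of each clock gene against 0h from the edgeR fit within each group, at 6h and at 12h, with 1 SE as error bar. Filled points have an adjusted p under 0.05. DBP has the lowest value in both groups at both times, and no PD point is filled.

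The same comparison in the dialysis group gave wider errors. In PD no member was called at 6h or at 12h, against 0.142% and 5.98% of the 15545 genes tested. At 6h none of the 8 had an unadjusted p under 0.05 by edgeR (1463 genes in all) and DESeq2, which called 437 genes, called none. At 12h 1 member, DBP, had an unadjusted p under 0.05 by edgeR (3812 genes in all), and DESeq2, which called 2767 genes, called that 1 member. Between 12h and 6h no member was called, against 0% of all genes, with 0 members and 1562 genes at an unadjusted p under 0.05 and no member among the 235 genes that DESeq2 called. Of the cell markers at 12h, 1 of 4 T and NK cell genes and 1 of 4 B cell genes were called lower (median log2 fold change −0.77 and −1.37). Of 4 alveolar type 1 genes 1 was called higher. No neutrophil or red cell gene was called, with medians of −0.76 and −1.9. The alveolar type 2 genes summed to 26012 to 76996 CPM at 0h and 17254 to 88326 CPM at 12h. The part of these cell types in the changes of the clock genes was not tested.

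DBP in PD stood at 7.97, 8.79, 21.4 and 32.0 CPM at 0h in pigs 2, 3, 4 and 5, the order used from here. It was 2.15, 8.12, 1.36 and 12.6 CPM at 6h and 6.58, 0.271, 0.0689 and 2.04 CPM at 12h. All 4 pigs were lower at 12h and the times do not overlap, but pig 2 had nearly its starting level, at 82.5% (95% exact interval 60.2 to 112, counting error only), and pig 4 had 1 count, 0.322% of its starting level (0.00814 to 1.81). Pig 3 kept 3.08% and pig 5 6.37%. The fitted log2 fold change was −1.77 (SE 1.07, adjusted p = 0.618 by edgeR) at 6h and −3.69 (SE 1.26, adjusted p = 0.101) at 12h. Without the library of pig 2 at 12h the latter became −5.35 (adjusted p = 0.00239), with the GC and length trend removed it was −3.62 (adjusted p = 0.0107), and DESeq2 on all libraries gave −3.88 (adjusted p = 0.000533).

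CRY1 in PD stood at 24.2, 26.4, 4.81 and 11.1 CPM at 0h, at 45.5, 21.4, 71.2 and 21.4 CPM at 6h and at 3.45, 53.4, 75.5 and 62.1 CPM at 12h. Pigs 3, 4 and 5 were higher at 12h and pig 2 was far lower. CRY1 had a log2 fold change of 1.18 (SE 0.84, adjusted p = 0.65 by edgeR) at 6h and 1.46 (SE 0.88, adjusted p = 0.337) at 12h. Without the 12h library of pig 2 the 12h value was 2.11 (adjusted p = 0.0172 by edgeR). CRY1 was not called at 12h with the GC and length trend removed.

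ARNTL in PD went from 10, 8.37, 5.79 and 8.71 CPM at 0h through 7.97, 6.4, 25 and 8.69 CPM at 6h to 1.73, 33.3, 32.1 and 19.7 CPM at 12h, again with pig 2 apart from the rest. Its log2 fold change was 0.28 (SE 0.68, adjusted p = 0.883 by edgeR) at 6h and 1.06 (SE 0.72, adjusted p = 0.393) at 12h. Without the 12h library of pig 2 the value was 1.68 (adjusted p = 0.02 by edgeR). DBP, CRY1 and ARNTL were the 3 members called there, in a fit that called 4350 genes in all against 930 with that library. The library left out had the highest GC trend (2.22), while the one with the lowest, pig 4 at 12h (−2.24), stayed in. With the GC and length trend removed from all PD libraries, neither CRY1 nor ARNTL was called at 12h. CLOCK in PD stood at 39.5 to 66.9 CPM at 0h, 37.3 to 99.2 CPM at 6h and 21.7 to 97.8 CPM at 12h, lowest in pig 2 at 12h (0.25, SE 0.49, adjusted p = 0.796 by edgeR, at 12h).

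PER1 in PD stood at 152, 138, 396 and 198 CPM at 0h, at 203, 374, 97.2 and 417 CPM at 6h and at 596, 170.2, 108 and 324 CPM at 12h. Pig 4 dropped while pig 2 rose nearly 4 times over, the reverse of their ARNTL and CRY1. PER1 had a log2 fold change of 0.18 (SE 0.69, adjusted p = 0.926 by edgeR) at 6h and 0.22 (SE 0.69, adjusted p = 0.879) at 12h. CRY2 moved with it, from 75.5, 97.8, 82.7 and 91.3 CPM at 0h to 97.8, 201, 69.5 and 288 CPM at 6h and 285, 147, 66.7 and 199 CPM at 12h (0.84, SE 0.46, adjusted p = 0.29 by edgeR, at 12h). PER2 stood between 17.5 and 46.1 CPM in all 12 PD libraries, with log2 fold changes of 0.19 (SE 0.37, adjusted p = 0.859 by edgeR) at 6h and 0.20 (SE 0.38, adjusted p = 0.793) at 12h.

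NR1D1 in PD was low, at 11.5, 12.6, 11.8 and 26.3 CPM at 0h, 10.4, 44.5, 8.03 and 62.2 CPM at 6h and 27.2, 11.0, 4.34 and 35.9 CPM at 12h. Neither change passed (0.67, SE 0.57, adjusted p = 0.693 by edgeR, at 6h and 0.07, SE 0.58, adjusted p = 0.952, at 12h). PER3, outside the 8, stood at 5.19, 6.16, 5.39 and 3.40 CPM at 0h and at 1.71, 10.2, 4.14 and 7.92 CPM at 6h. That is higher in 2 pigs and lower in 2, with a log2 fold change of 0.0 (SE 0.60, adjusted p = 0.998 by edgeR). At 12h PER3 stood at 0.971, 2.60, 1.31 and 1.78 CPM, lower than at 0h in 4 of 4 pigs and without overlap. Its 12h log2 fold change of −1.75 (SE 0.49, adjusted p = 0.0573 by edgeR) was just over the threshold, and it was −1.73 (adjusted p = 0.0307) without the 12h library of pig 2. NR1D2 was higher at 6h in 4 of 4 pigs, at 173 to 242 CPM against 78.8 to 141 CPM at 0h, with a log2 fold change of 0.94 (SE 0.32, adjusted p = 0.377 by edgeR). At 12h it stood at 97.6 to 241 CPM, higher than at 0h in 3 of 4 pigs (0.75, SE 0.32, adjusted p = 0.18 by edgeR).

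Whether dialysis altered the change during perfusion was tested as the interaction of group and time over all 27 libraries. No member was called at 6h or at 12h, against 0% of the 17884 genes in both cases. None of the 8 had an unadjusted p under 0.05 by edgeR (1046 genes in all at 6h and 1069 at 12h), and no member was among the 7 and 15 genes that DESeq2 called. The largest differences at 6h were those of NR1D1 (PD minus GS 1.04 on the log2 scale, 95% interval −0.37 to 2.44) and PER2 (−0.76, −1.64 to 0.12), and at 12h those of DBP (−1.04, −3.23 to 1.14) and ARNTL (0.74, −0.70 to 2.18). The intervals for CRY1 ran from −1.92 to 1.35 at 6h and from −1.65 to 1.67 at 12h, so differences of more than 2-fold in either direction lie within them.

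Before perfusion the groups already differed in 2 of the 8 members, against 40.6% of the 16477 genes tested. NR1D1 was 58.2 to 164 CPM in the 5 GS lungs and 11.5 to 26.3 CPM in the 4 PD lungs, without overlap (log2 fold change −2.85, SE 0.38, adjusted p = 0.000148 by edgeR). It stayed between −3.22 and −2.71 with any 1 pig left out, and was −2.0 (adjusted p = 0.00115) with the GC and length trend removed and −2.43 (adjusted p = 0.0117) against the 2 GS pigs with fewer counts only. THRA, its overlapping neighbour, differed in the same direction, with 98.2 to 234 CPM in GS and 23.5 to 43.5 CPM in PD (−2.07, SE 0.30, adjusted p = 0.000257 by edgeR).

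PER1 at 0h was 226 to 807 CPM in GS and 138 to 396 CPM in PD, which overlap. Its log2 fold change of −1.16 (SE 0.42, adjusted p = 0.0447 by edgeR) did not hold without GS pig 44 (−0.95, adjusted p = 0.113), GS pig 55 (−1.12, adjusted p = 0.0849), GS pig 77 (−1.07, adjusted p = 0.0948), PD pig 2 (−1.02, adjusted p = 0.108), PD pig 3 (−1.0, adjusted p = 0.107) or PD pig 5 (−1.11, adjusted p = 0.102). It was −0.35 (adjusted p = 0.427) with the GC and length trend removed and −0.19 (adjusted p = 0.808) against the 2 GS pigs with fewer counts. Outside the 8, PER3 was lower in PD without overlap (−1.76, SE 0.24, adjusted p = 0.000199 by edgeR), and so was NR1D2 (−0.75, SE 0.24, adjusted p = 0.0251). The NR1D2 call was lost without GS pig 9 (−0.63, adjusted p = 0.0518), PD pig 2 (−0.71, adjusted p = 0.0665) or PD pig 5 (−0.77, adjusted p = 0.0531).

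The other 6 members ranged from −0.56 for PER2 (SE 0.29, adjusted p = 0.147 by edgeR) to 0.33 for CRY1 (SE 0.43, adjusted p = 0.568) at 0h. Cell markers differed between the groups at this time. The alveolar type 2 genes summed to 6521 to 9238 CPM in GS and 26012 to 76996 CPM in PD, the 4 neutrophil genes found to 149 to 394 and 624 to 1244 CPM, the 2 red cell genes found to 0.355 to 10.3 and 51.3 to 236 CPM, and the 6 endothelial genes to 1906 to 2689 and 1201 to 1712 CPM. Single markers went both ways, with 1 alveolar type 2 gene called higher and 1 lower in PD (median log2 fold change 0.64 over 5), 2 neutrophil genes higher and 1 lower, and 1 endothelial gene higher and 3 lower. Of 6 fibroblast genes 2 were higher and 2 lower, of 4 B cell genes 2 higher and 1 lower, and of 4 ciliated cell genes 2 higher, against 40.6% of all genes called in either direction. Their part in the differences of NR1D1 and PER1 was not tested.

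**Figure D3:**
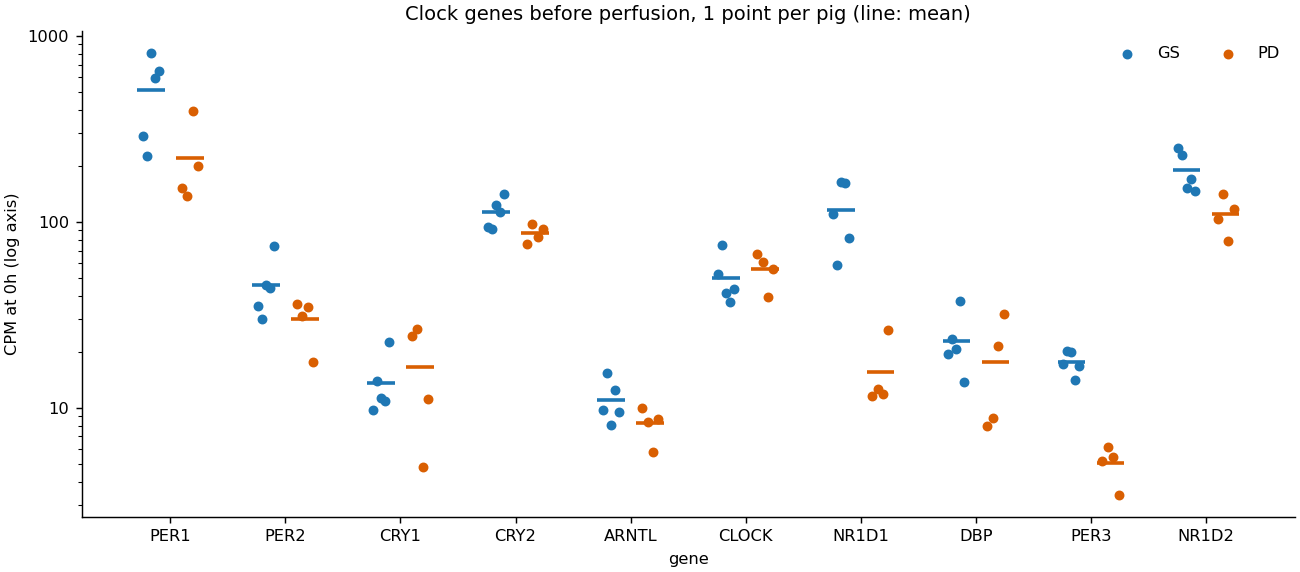
Level of each clock gene at 0h in CPM (log axis), with 1 point per pig (5 GS, 4 PD) and a line at the group mean. NR1D1, PER3 and NR1D2 are the genes whose groups do not overlap. Of all genes tested at 0h, 40.6% were called different between the groups by adjusted p, which is not a measure of overlap. The share of all genes without overlap was not computed.

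The within-pig patterns of the members were compared in pairs. After each gene was centred on the mean of its pig, Pearson's r over the 27 libraries was 0.91 between ARNTL and CLOCK, 0.77 between CRY1 and CLOCK and 0.75 between CRY1 and ARNTL, while PER1 and CRY2 had 0.85. NR1D1 had −0.80 with CLOCK, −0.67 with ARNTL and 0.53 with both PER1 and CRY2. DBP had −0.82 with CRY1, −0.67 with ARNTL and −0.63 with CLOCK, 0.48 with NR1D1, 0.05 with PER1, −0.25 with CRY2 and −0.37 with PER2. PER2 had 0.52 with both CRY1 and CRY2 and 0.39 with PER1. These values are descriptions over 3 libraries from each of 9 pigs, which share their pig and their library. The members also differ in base composition, with exon GC of 42.3% for CRY1, 45.2% for CLOCK and 48.6% for ARNTL, and 63.9% for PER1, 63.3% for DBP, 59.5% for CRY2, 58.3% for PER2 and 57.2% for NR1D1.

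Over the 27 libraries pooled, the library GC trend moved with most of them. Its r with the level of the gene, centred in the same way, was −0.75 for ARNTL, −0.74 for CLOCK and −0.72 for CRY1, and 0.70 for PER1, 0.56 for NR1D1, 0.49 for DBP, 0.47 for CRY2 and 0.04 for PER2. The trend spanned −2.24 to 2.22 in PD but −0.74 to 1.22 in GS, and r within GS alone was not computed. CRY1 rose at 12h in every GS pig, while the trend changed by 0.2, 0.12, 0.41 and 0.31 in pigs 17, 44, 55 and 77 and by −0.3 in pig 9. PD pig 2 at 12h, with the highest trend, had high PER1 and low ARNTL, CLOCK and CRY1, and PD pig 4 at 12h, with the lowest trend, had the opposite. With the trend removed, the GS values at 12h were 1.62 for CRY1 (adjusted p = 0.000189 by edgeR), 0.96 for CRY2 (adjusted p = 0.00549), 0.95 for PER1 (adjusted p = 0.00173), 0.77 for PER2 (adjusted p = 0.0281) and −2.49 for DBP (adjusted p = 0.000177), so the same 5 members were called. ARNTL stood at 0.34 (adjusted p = 0.288), CLOCK at 0.34 (adjusted p = 0.158) and NR1D1 at −0.29 (adjusted p = 0.608) in that fit.

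**Figure D4:**
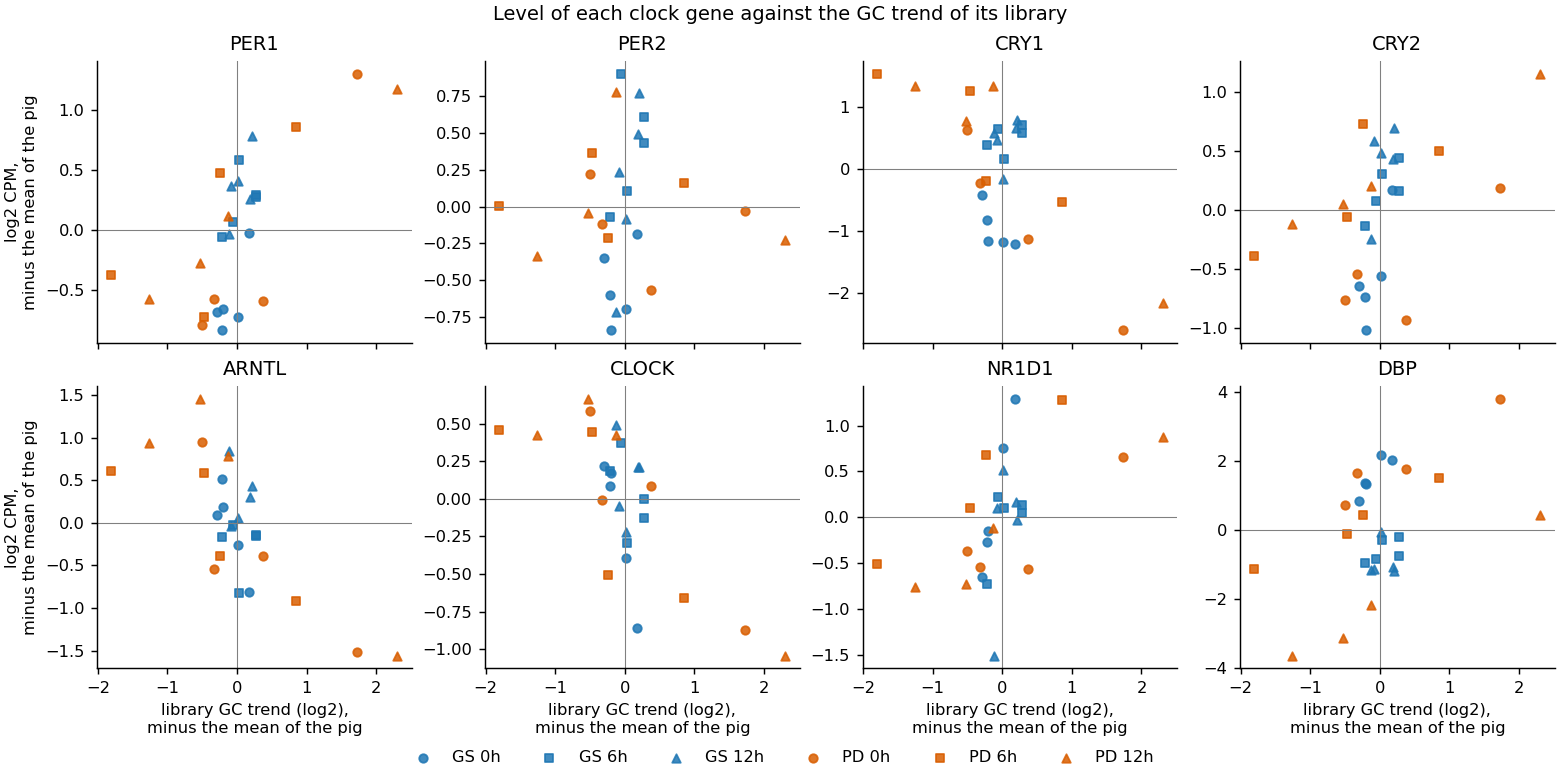
Level of each of the 8 members (log2 CPM) against the GC trend of its library (log2), both centred on the mean of the pig, over 27 libraries, GS in blue and PD in orange with a marker for each time. ARNTL, CLOCK and CRY1 slope down and PER1 slopes up, and the libraries with the lowest and highest trend before centring (−2.24 and 2.22) belong to PD.

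The genes whose within-pig pattern was most like a member were searched for 4 of them over the same 27 libraries. For ARNTL they were POLR1B (r = 0.948), NUP160 (r = 0.934) and ZNF507 (r = 0.929). For NR1D1 they were SYT2 (r = 0.887), LYPD3 (r = 0.873) and NR4A1 (r = 0.857), and for PER1 UBALD2 (r = 0.899) and KLHL36 (r = 0.895). DBP was most like SLC27A1 (r = 0.981), DECR2 (r = 0.974) and ARRDC1 (r = 0.972).

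The remaining genes of the pathway were taken from lists of 36 genes, all of which were tested. In GS 19 of the 36 were called at 6h, 15 of them higher and 4 lower, and 23 at 12h, 17 higher and 6 lower, against 28.5% and 38.4% of all genes. The median log2 fold change of the 36 was 0.45 at 6h and 0.52 at 12h, against −0.05 and −0.08 over all genes. In PD 1 was called at 6h and 6 at 12h, all of them higher, against 0.142% and 5.98% of all genes, with medians of 0.56 and 0.84 against −0.02 and −0.05 over all genes. The PD count at 12h was 19 without the 12h library of pig 2, 2 without pig 4 and 0 without pig 3 or pig 5, and the same fits called 4350, 399, 0 and 0 of all genes. No gene of the 36 was called in the interaction at either time.

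Among the activators, NPAS2, a paralog of CLOCK, rose in 5 of 5 GS pigs (log2 fold change 0.58, SE 0.16, adjusted p = 0.0149 by edgeR, at 6h and 1.0, SE 0.16, adjusted p = 0.000527, at 12h). ARNTL2 was not called in either group. Of the 3 D-box factors, 2 were called at 6h and 3 at 12h in GS (all genes 28.5% and 38.4%), and 1 at each time in PD (all genes 0.142% and 5.98%). TEF, an activator related to DBP, fell in GS at both times (−0.79, SE 0.13, and −1.10, SE 0.14), and HLF, another relative, fell at 12h (−0.71, SE 0.16) but not at 6h (−0.40, SE 0.15, adjusted p = 0.0693 by edgeR) and is named after its values were seen. In PD at 12h TEF stood at −1.16 (SE 0.57, adjusted p = 0.24 by edgeR) and HLF at −0.86 (SE 0.34, adjusted p = 0.141). NFIL3, the repressor at D-boxes, rose in GS (1.86, SE 0.46, adjusted p = 0.0106 by edgeR, and 2.18, SE 0.46, adjusted p = 0.00327). NFIL3 was also called in PD at both times (3.28, SE 0.43, adjusted p = 0.0176, and 2.45, SE 0.42, adjusted p = 0.0176), higher in 4 of 4 pigs, and the call was lost at 6h without pig 3, 4 or 5 and at 12h without pig 3 or 5. Its PD level went from 15.3 to 51.5 CPM at 0h to 133 to 396 CPM at 6h and 125 to 175 CPM at 12h.

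Of the 3 E-box repressors, 0 were called at 6h in either group (all genes 28.5% in GS and 0.142% in PD). At 12h 2 were called in GS and 1 in PD (all genes 38.4% and 5.98%). BHLHE40 was called at 12h in both groups (1.27, SE 0.42, in GS and 1.75, SE 0.41, in PD). It was higher in 4 of 4 PD pigs but in 4 of 5 GS pigs, where the changes ran from −1.15 to 2.26, so its GS value stands outside the naming rule. BHLHE41 fell in GS at 12h (−0.65, SE 0.21). Of 10 kinases and ubiquitin ligases that act on PER and CRY proteins, 5 were called at 6h and 6 at 12h in GS (all genes 28.5% and 38.4%), with CSNK1E, a kinase of PER, higher (1.05, SE 0.16, and 1.16, SE 0.16) and BTRC, a ligase subunit, lower (−0.93, SE 0.16, and −0.98, SE 0.16). None was called in PD (all genes 0.142% and 5.98%). Of 5 partners of the PER and CRY complexes, 4 were called in GS at both times (all genes 28.5% and 38.4%). SFPQ rose (1.23, SE 0.14, and 1.31, SE 0.14) and TIMELESS fell (−0.96, SE 0.24, and −1.05, SE 0.24), and SFPQ was also called in PD at 12h (1.25, SE 0.33, adjusted p = 0.0479 by edgeR).

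Of 10 genes known as outputs of the clock, 6 were called in GS at each time, all higher (all genes 28.5% and 38.4%). USP2, a deubiquitinase, rose most at both times (2.19, SE 0.28, and 2.30, SE 0.28), with NAMPT, an enzyme of NAD synthesis, next at 6h (1.94, SE 0.16) and the transcription factor KLF10 next at 12h (2.22, SE 0.34). In PD 3 were called at 12h (all genes 5.98%), namely NAMPT (2.93, SE 0.66, adjusted p = 0.031 by edgeR), PNP, an enzyme of purine salvage (2.05, SE 0.43, adjusted p = 0.0271), and KLF9, a transcription factor named after its values were seen (1.86, SE 0.46, adjusted p = 0.0409).

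**Figure D5:**
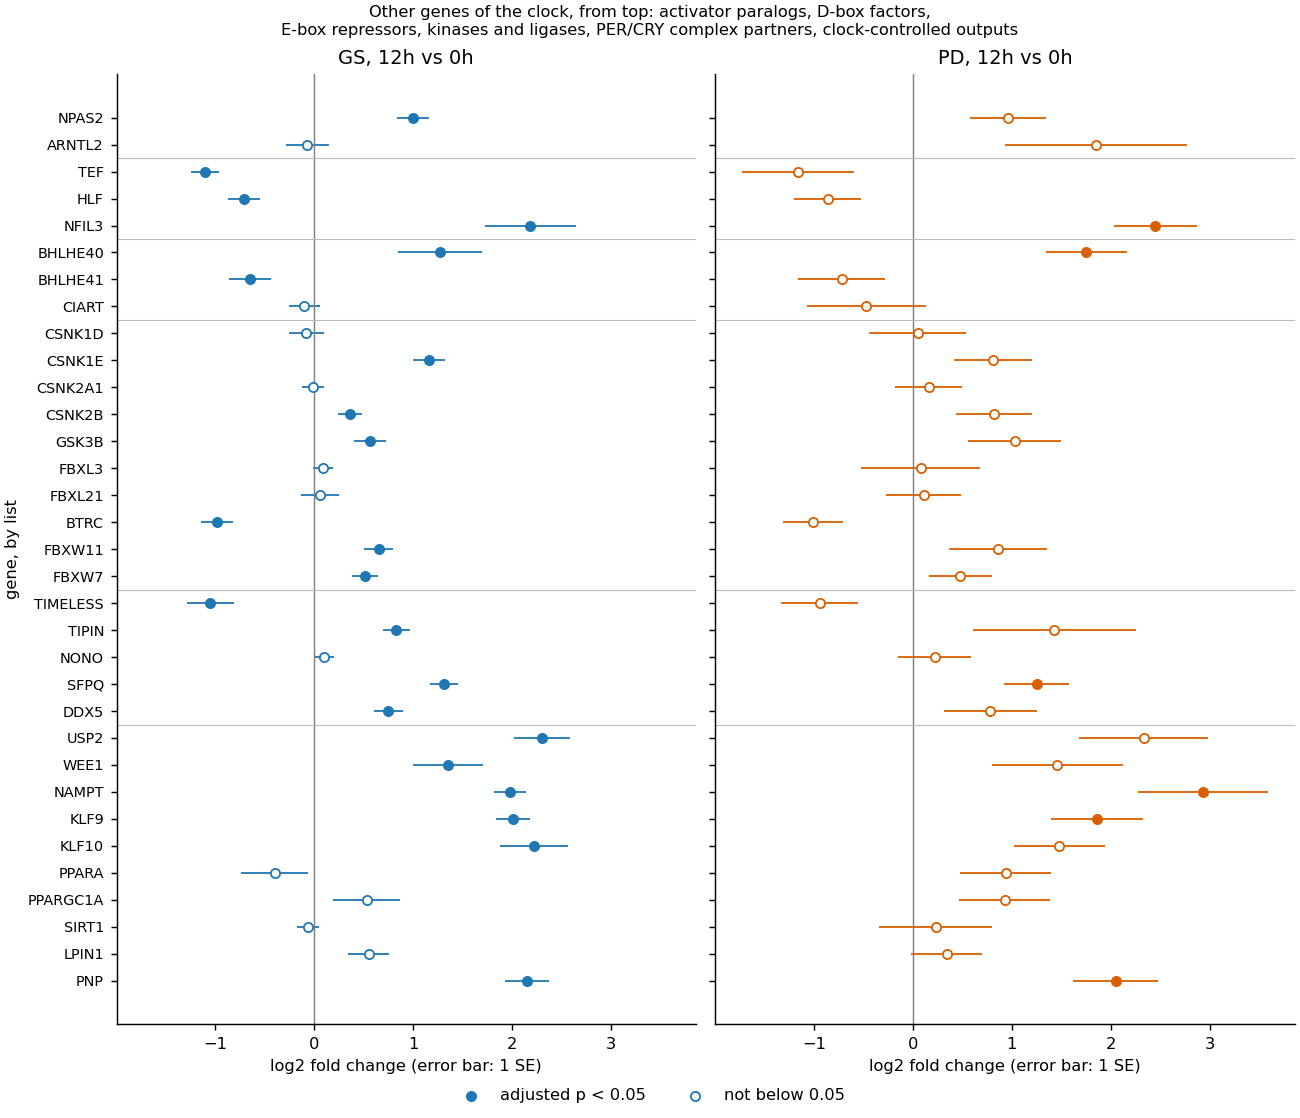
Log2 fold change at 12h against 0h of other clock genes in GS and in PD, grouped by list, with 1 SE as error bar and filled points for an adjusted p under 0.05. NFIL3, NAMPT and PNP lie right of 0 with filled points in both groups, and HLF is filled left of 0 in GS only, where it stands at −0.71.

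Because every perfusate held methylprednisolone and PER1 is a glucocorticoid target, 10 genes induced by glucocorticoids were listed beside it. In GS 6 of the 10 were called at 6h and 7 at 12h, all higher (all genes 28.5% and 38.4%), with ANGPTL4 (1.79, SE 0.25, and 1.77, SE 0.25) and the kinase gene SGK1 (1.6, SE 0.31, and 1.93, SE 0.31) first. The list did not move as one, as 2 genes named after their values were seen show. At both times DUSP1 (median log2 change −0.90 and −0.48) and TSC22D3 (−0.07 and −0.20) were lower in 3 GS pigs and higher in 2. In PD TSC22D3 was lower in 3 pigs and higher in 1 at both times (−1.0 and −0.77). In PD none was called at 6h and 1 at 12h, SGK1 (2.28, SE 0.52, adjusted p = 0.0319 by edgeR), against 0.142% and 5.98% of all genes. Over the alternatives these PD counts ran from 0 to 4 at 6h and from 0 to 6 at 12h, with 0 at 12h without pig 3 or pig 5 and 6 without pig 2, in fits that called 0, 0 and 4000 of all genes. The part of methylprednisolone in the rise of PER1 was not tested.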

How the data were processed

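RNA of 27 lung biopsies was sequenced with a directional poly(A) kit, which marks strand. Per the labels and the study's methods, the authors trimmed reads with cutadapt 1.15, aligned them with TopHat2 2.0.14 to Sscrofa11.1 and made raw counts per gene with featureCounts of Subread 1.6.0, and these whole-number counts are the values deposited. Which strand featureCounts read, and what it did with reads aligned at several places, was not given in the sources used here. No column of unmapped samples was present in the table.

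Genes were named from the table (16719 genes) and from NCBI gene tables (1355 more), and the members and gene lists were chosen with earlier results of these data known. Counts were tested with edgeR 4.0.16 (R 4.3.3, limma 3.58.1) by quasi-likelihood with robust dispersion, TMM factors and edgeR's filter on low counts. Each group was fitted over its 3 time points with the pig as block, the difference between groups as an interaction over 27 libraries, and the 0h groups over 9 libraries. The SE was the log2 fold change over the square root of F, and intervals span 1.96 SE to each side. Levels are edgeR's CPM with TMM factors. DESeq2 1.42.0, other scalings, no filter, no block, one fit of all libraries and left-out pigs were run as alternatives. Fits with the GC and length trend removed, by sequencing depth of the GS pigs, without the PD library with fewest counts, and DESeq2 without each PD pig were added once the data had been seen. Exon GC and length came from RefSeq, to which 18659 rows (58.5%) were matched. Of the 17884 genes of the interaction fit, 14819 (82.9%) had a GC value. Python 3.11.15, pandas 2.3.3, SciPy 1.17.1 and matplotlib 3.10.9 were used for the rest. The test procedure was also run on simulated counts, and the outcome is not given here.

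Libraries of 1 pig share a pig number in the labels, since each lung was biopsied at every time. Residuals of the same pig correlated at 0.526 on average in GS (0.342 to 0.74) and at 0.109 in PD (−0.283 to 0.488). In the fits with the pig as block, p-values measure the spread left once the level of each pig is taken out. In the 0h comparison they measure the spread between pigs. Library totals allow 3 counts to stand for 0.0411 to 0.104 CPM in GS and 0.129 to 0.324 CPM in PD. No pair of libraries was as alike as sampling noise, the smallest chi-square per degree of freedom being 36.4. Named were all members and, from each list, up to 2 called genes of a comparison with the largest change that moved the same way in every pig, with the exceptions stated. For ARNTL, NR1D1, PER1 and DBP up to 3 genes with the highest within-pig correlation were named. Some items that these rules select are not reported here.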

Additional observations from a re-analysis of the deposited data

Results flagged for a closer look

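In 60 groups of 4 or 5 libraries, 1 for each clock gene, group and time, 5 held a library that stood apart from the others by Dixon's test, which chance gives in about 1 of 20 groups. PER2 in GS at 12h was lowest in pig 9, at 24.3 CPM. CRY1 in PD at 12h was lowest in pig 2, at 3.45 CPM, and NR1D2 in PD at 12h was lowest in the same library, at 97.6 CPM. NR1D1 in PD at 0h was highest in pig 5, at 26.3 CPM, which is still below every GS lung at that time. NR1D2 in GS at 12h was highest in pig 17, at 419.8 CPM.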

How the results depend on the processing

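Of the 8 members, 5 were called in GS at 6h and 5 at 12h. With no replicate block 2 and 2 were called, with all 27 libraries in one fit 1 and 1, with only the GS pigs of lower depth 2 and 3, and with a 2-fold minimum 2 and 2. With 1 GS pig left out the 6h count ran from 2 (without pig 44) to 5 and was 3 without pig 55, and the 12h count ran from 4 to 5. Over all alternatives the GS count ran from 1 to 5 at 6h and from 1 to 6 at 12h. In PD at 12h no member was called, but 1 was by DESeq2, 1 with the GC and length trend removed, 1 with all libraries in one fit and 3 without the library with fewest counts. With 1 PD pig left out the count ran from 0 to 3, the latter without pig 2, and DESeq2 gave 3, 1, 1 and 1 without pigs 2, 3, 4 and 5. Between 12h and 6h in PD, DESeq2 called 1 member without pig 2. At 0h, 2 members differed between the groups, and 1 with upper quartile factors, 1 with only the GS pigs of lower depth, and 1 to 2 with 1 pig left out. Over all alternatives the 0h count was 1 in 8 and 2 in 8. PER1 lost its 0h call in 9, the fit with the GC and length trend removed among them. No called member changed sign under any alternative. The cause of these shifts was not tested.

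Over all genes, GS calls went from 5295 at 6h to 1731 with no replicate block, 1606 in the fit of all libraries, 1034 in the pigs of lower depth, 2057 with a 2-fold minimum, 2720 without pig 44 and 3387 without pig 77. At 12h they went from 7136 to 3083, 2883, 1732, 2911 and, without pig 44, 4639. PD calls at 6h (22) were 437 by DESeq2, 103 with no filter, 218 with the trend removed, 100 with no replicate block, 139 with 2 time points, 512 with all libraries, 252 without the smallest library and 0 to 98 with 1 pig left out (96 to 1504 by DESeq2). At 12h (930) they were 2767 by DESeq2, 3185 with the trend removed, 1488 with no replicate block, 4 with 2 time points, 4093 with all libraries, 4350 without the smallest library and 0 to 4000 with 1 pig left out (618 to 5662 by DESeq2). Between 12h and 6h in PD (0), they were 235 by DESeq2 (424 without pig 2 and 598 without pig 4) and 492 with all libraries. Without PD pig 2, 254 and 153 genes passed in the interaction at 6h and 12h, against 0 and 0. With the GS pigs of lower depth only, 2321 genes differed at 0h against 6687. Of the other clock genes, 4 to 23 were called in GS at 6h over the alternatives against 19 (10 with no replicate block) and 8 to 25 at 12h against 23, with the lowest counts in the pigs of lower depth. In PD 0 to 7 were called at 6h against 1, and 0 to 22 at 12h against 6. Of the glucocorticoid-induced genes, 4 to 8 were called in GS at 6h against 6 and 4 to 9 at 12h against 7. Upper quartile factors moved the median of all genes by −0.11 at 6h and −0.20 at 12h in PD. PD libraries hold the fewest counts, which limits DBP most, with 1 count in pig 4 at 12h.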
